A study of Mus musculus with 6 samples.

Results

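The genes described here are 10 epithelial genes that Zeb transcription factors are known to repress in other tissues: Cdh1, Epcam, Crb3, Spint1, Spint2, Esrp1, Esrp2, Grhl2, Krt8 and Krt18. They were taken by symbol from a table of 23793 loci measured by RNA-seq in the cerebellum of newborn mice (postnatal day 0), and each symbol matched 1 locus. The table holds 3 control libraries from Zeb2 f/+; hGFAP-cre mice and 3 conditional knockout (cKO) libraries from Zeb2 f/f; hGFAP-cre mice, so both groups carried Cre and the controls kept 1 allele that Cre cannot delete. hGFAP-cre is driven by the human GFAP promoter, which is active in neural progenitors and glia; the dissected tissue also holds cells of other origin. The labels do not say whether each library is a single animal, and p-values therefore reflect only the spread among libraries.

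Zeb1 and Zeb2 are zinc finger proteins that bind E-box motifs in the promoters of epithelial genes and recruit corepressors there. They are best known from epithelial-mesenchymal transition, in which cells shut down E-cadherin and other epithelial genes, loosen their junctions and become motile. Neural tissue derives from an epithelium, but neurons and glia use N-cadherin in place of E-cadherin, and the brain's cells with typical epithelial features are those of the choroid plexus, the ependyma and the arachnoid barrier of the meninges.

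The E-box CACCTG, which reads CAGGTG on the other strand, was looked for in RefSeq promoter windows (build GRCm38.p6) of 250 bases before to 50 bases after a transcript start. Windows were found for 6 of the 10 genes, and Cdh1, Esrp1, Esrp2 and Grhl2 had no entry. The E-box was present in the windows of Spint2, Crb3, Epcam, Krt8 and Krt18 and not in that of Spint1. Counting both windows of Crb3, 6 of 7 windows held it (85.7%), against 20.2% of 32851 windows in the whole table. The windows of Crb3 overlap and hold the same 4 E-boxes, and by gene the count was 5 of 6. The genes were chosen as ones that Zeb factors repress, so these shares are a description only. The shorter half-site CACCT, searched on both strands, which every such E-box contains, was in the same share of these windows (85.7%), against 51.9% of all windows. The promoters of Spint2, Crb3, Krt8 and Krt18 are printed because every cKO value of these genes lay above every control value (values below). Only the 250 bases before the start are shown, 5′ to 3′ on the strand of the gene, with the E-boxes in capitals.
Spint2, chr7:29281978-29282227, minus strand: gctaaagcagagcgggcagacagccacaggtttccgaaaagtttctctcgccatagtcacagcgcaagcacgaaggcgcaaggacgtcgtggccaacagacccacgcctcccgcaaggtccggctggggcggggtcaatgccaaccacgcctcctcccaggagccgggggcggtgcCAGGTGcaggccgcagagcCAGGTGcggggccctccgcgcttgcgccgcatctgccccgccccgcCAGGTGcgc
Crb3, chr17:57061951-57062200, plus strand: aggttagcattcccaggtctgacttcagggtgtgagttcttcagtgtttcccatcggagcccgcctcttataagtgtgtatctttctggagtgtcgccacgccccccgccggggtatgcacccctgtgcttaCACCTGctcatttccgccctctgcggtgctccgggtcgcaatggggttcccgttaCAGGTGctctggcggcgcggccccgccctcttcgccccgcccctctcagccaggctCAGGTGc
Krt8, chr15:102004343-102004592, minus strand: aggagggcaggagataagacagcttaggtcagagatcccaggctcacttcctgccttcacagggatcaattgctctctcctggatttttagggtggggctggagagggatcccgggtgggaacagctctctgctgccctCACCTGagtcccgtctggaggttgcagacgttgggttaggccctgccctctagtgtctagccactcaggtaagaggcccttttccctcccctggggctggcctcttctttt
Krt18, chr15:102027966-102028215, plus strand: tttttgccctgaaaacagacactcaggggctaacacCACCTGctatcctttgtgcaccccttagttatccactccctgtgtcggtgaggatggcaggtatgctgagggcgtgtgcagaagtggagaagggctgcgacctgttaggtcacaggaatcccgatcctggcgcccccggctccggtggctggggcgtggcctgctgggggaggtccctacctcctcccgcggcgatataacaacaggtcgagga
The 3 E-boxes of Spint2 begin 74, 55 and 9 bases before the start. Those of the Crb3 window shown begin 118, 63 and 7 bases before it, and another begins 25 bases after it. Of all windows, 0.365% held 3 or more. Krt8 and Krt18, neighbouring genes on chromosome 15, had 1 E-box each, 111 and 214 bases before their starts. These are RefSeq starts. The GENCODE spans of Krt8 and Crb3 given below begin farther upstream, so the E-boxes of both genes lie inside those spans. The Epcam window held 2. A match describes the letters of the window only, since binding was not measured.

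Zeb2 (locus named Mir5129,Zeb2) was measured at 11.4, 9.52 and 7.995 FPKM (fragments scaled to transcript length and library size) in controls 1 to 3 and at 6.19, 3.89 and 5.81 FPKM in cKO 1 to 3. Every cKO value was below every control value, but the log2 fold change of -0.77 (SE 0.18) did not pass (limma, adjusted p = 0.107; 0.0475 with small-RNA loci left out). Zeb1, the paralog with the same DNA motif, was at 27.4 ± 1.06 FPKM in controls, against 24.6 ± 0.526 FPKM in cKO (SD, n = 3 each; log2 fold change -0.15, SE 0.05, limma adjusted p = 0.207). Zeb1 RNA was thus present in all 6 libraries, at 24.2 to 28.6 FPKM. Markers of the tissue were present too, with Zic1 of the granule neuron lineage at 263 to 313 FPKM and Pcp4 of Purkinje cells at 389 to 464 FPKM. Library sums lay between 497542 and 524474 FPKM, and no source used here gives the read depth. cKO 3 stood apart from its group: its score of 0.0643 on principal component 1, which held 29.5% of the variance, was between the controls (-0.483 to -0.287) and the other cKO libraries (0.521 and 0.535). Control 3 and cKO 3 belong to a second deposit, the other libraries to a first. All controls carried Y-linked transcripts (Ddx3y 15.2 to 17.3 FPKM, at most 0.0286 in cKO) and all cKO libraries Xist (142 to 147 FPKM, at most 0.515 in controls). Sex and genotype cannot be told apart for any value below.

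Most of the 10 genes were barely detected. Only Spint2 and Crb3 reached 1 FPKM in at least 3 libraries, as 57.2% of all loci did, 7 of the 10 stayed under 1 FPKM in every library, and Krt8 exceeded it in cKO 1 alone. Spint2 was the one gene of the set with a level above most loci: its control mean of 24.9 FPKM exceeded that of 83.1% of loci in the table. The control mean of Crb3 (2.35 FPKM) exceeded that of 48.6% of loci, that of Epcam (0.785 FPKM) 41.2% and that of Spint1 (0.467 FPKM) 38.1%. Krt8, Grhl2 and Krt18 had control means of 0.178, 0.127 and 0.124 FPKM, and Cdh1 and Esrp1 of 0.0205 and 0.0146 FPKM. Esrp2 was listed at 0 in all controls. FPKM is scaled for transcript length, so these levels can be set side by side. In whole tissue, a low value cannot tell few cells with much RNA from many cells with little.

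**Figure D1:**
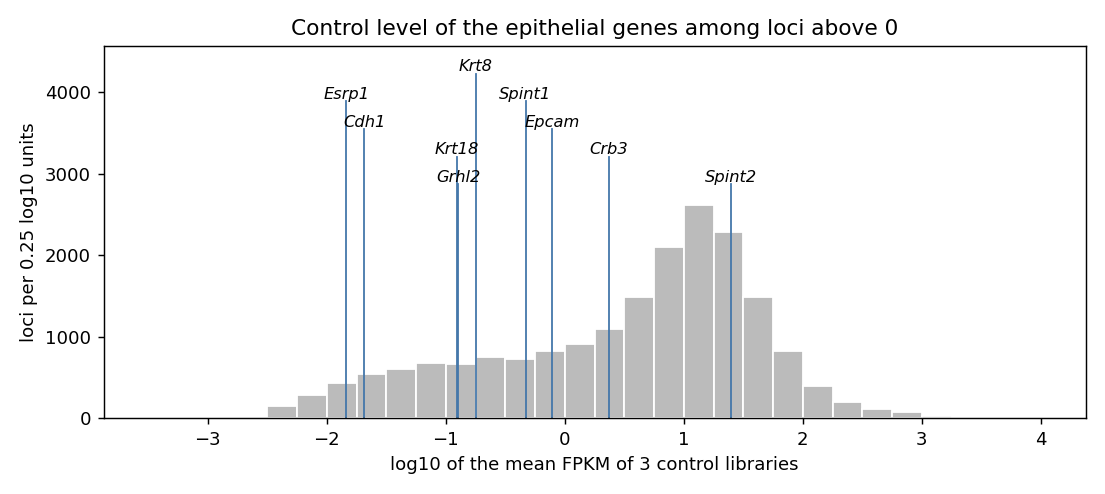
Histogram of the control mean (log10 FPKM, 3 libraries, x axis) over all loci above 0 (number of loci, y axis), with lines at the means of 9 of the 10 epithelial genes. Spint2 (24.9 FPKM) lies among the well expressed loci and Cdh1 and Esrp1 in the lowest tail; Esrp2, at 0 in the controls, is not drawn.

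The smallest possible number of fragments behind the lowest values could be read from the table, a reading added after seeing the data. Controls 2 and 3 and cKO 1 and 2 share a step pattern in their low values, and once scaled for relative depth (1, 1.02, 0.797 and 0.909 in that order) the values of 8 of the 10 genes stood in whole-number ratios (largest deviation 0.000795; Esrp2 had values in only 2 of the 4). The smallest such numbers are given below as fragments; the true counts could be a common multiple of them. Control 1 and cKO 3 share another step pattern, and whole-number ratios of only 2 libraries were not used. Intervals quoted with these numbers are exact 95% intervals of the depth-scaled ratio of the 4 libraries, take the smallest numbers as the counts, and cover counting error only, not the spread between animals.

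No gene of the set passed the test of cKO against control. Of the 2 genes tested, 0 were called by limma at an adjusted p of 0.05, against 0.573% of the 13612 loci tested (78 loci, 33 of them higher in cKO). With 1 library left out, 21 to 55 loci were called on the same 13612 loci, and 10 to 41 with the filter reapplied. Both tested genes had a p under 0.05 before adjustment (limma), as had 2396 of all loci. Without a filter and with log2(FPKM + 0.1), a setting added after seeing the data, all 10 could be fitted: 0 were called, against 0.171% of 19852 loci. Of the 10, 4 had an unadjusted p under 0.05 (limma), as had 2831 of the 19852 loci. In that fit 9 of the 10 had a positive log2 fold change, with a median of 0.31, against 0.0024 over all 19852 loci, of which 50.6% were positive. For 6 of the 10 genes (Cdh1, Spint2, Esrp2, Crb3, Krt8 and Krt18) every cKO library lay above every control library, as for 9.92% of all loci above 0, and for 0 of the 10 every cKO library lay below. For each of these 6 the permutation p was 0.1 (exact, two-sided), the lowest possible with groups of 3. Of the 8 genes under the filter, 4 were apart in this way. Among all 6095 loci with a mean above 0 and under 1 FPKM, 9.42% were apart with cKO higher and 3.18% with cKO lower. Without cKO 3, the library that stands apart, the count was 7, with Spint1 added, against 17.1% of loci; leaving out a library can keep or raise such a count but never lower it.

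**Figure D2:**
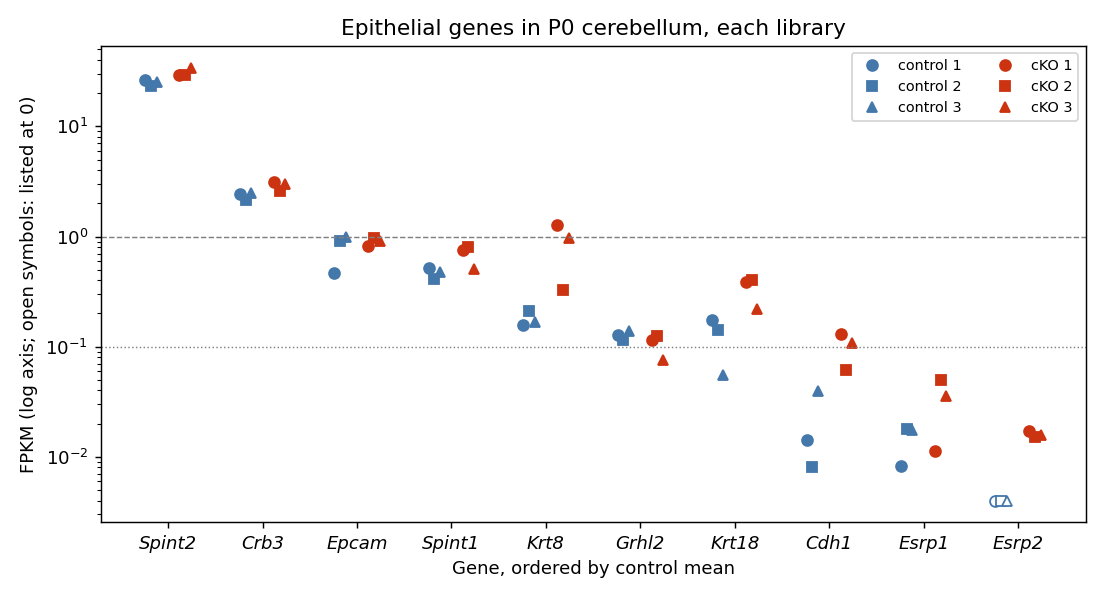
FPKM of the 10 epithelial genes in each library (log axis, y; genes ordered by control mean, x), with blue symbols for controls, red for cKO, and open symbols for values listed at 0. The dashed and dotted lines mark 1 and 0.1 FPKM; in Spint2, Crb3, Krt8, Krt18, Cdh1 and Esrp2 all red symbols lie above all blue ones.

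Cdh1 (E-cadherin, the adhesion molecule of adherens junctions; locus XLOC_020657, chr8:106603351-106670246 on the GRCm38 plus strand) was close to the limit of detection. Its values were 0.0142, 0.00801 and 0.0394 FPKM in controls 1 to 3 and 0.131, 0.0617 and 0.109 FPKM in cKO 1 to 3. The groups did not overlap, and the cKO mean was 4.89 times the control mean, yet no library exceeded 0.131 FPKM. The whole numbers were 1 and 5 fragments in controls 2 and 3 and 13 and 7 in cKO 1 and 2, a depth-scaled ratio of 3.94 with an interval of 1.53 to 11.99. In the fit without a filter the log2 fold change of FPKM + 0.1 was 0.73 (SE 0.19, limma adjusted p = 0.194). By contrast Cdh2, the N-cadherin of neural cells, was at 55.5 to 59.04 FPKM in controls, against 59.3 to 62.9 FPKM in cKO, apart with cKO higher by a small margin (log2 fold change 0.09, SE 0.05, limma adjusted p = 0.384).

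The 3 tested loci whose log2 profile over the 6 libraries was most like that of Cdh1 were Pcdh19 (Pearson r = 0.997), Esrrb (0.990) and Atxn1 (0.988), all expressed at higher levels. Pcdh19, a protocadherin gene on the X chromosome, was at 9.34, 9.29 and 10.1 FPKM in controls, against 12.9, 10.6 and 11.9 FPKM in cKO. With 6 points and 13612 loci such values are a description only; 62 loci had an r of at least 0.95.

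Epcam (an epithelial adhesion molecule that also modulates cadherin contacts; chr17:87635979-87651129, plus strand) was at 0.465, 0.908 and 0.982 FPKM in controls, against 0.820, 0.979 and 0.907 FPKM in cKO. Control 1 was low and the other 5 libraries lay close together, so the groups overlapped. The values of 50 and 55 fragments in controls 2 and 3 and 36 and 49 in cKO 1 and 2 gave a ratio of 0.957 (0.710 to 1.29). Epcam RNA was detected in every library, at a level far above that of Cdh1, with no difference beyond the spread (exact permutation p = 0.9).

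Crb3 (the Crumbs protein that helps set the apical domain; chr17:57059105-57065918, plus strand) was at 2.41, 2.12 and 2.51 FPKM in controls, against 3.15, 2.57 and 3.02 FPKM in cKO. The lowest cKO value, that of cKO 2, lay just above the highest control. The means were 2.35 ± 0.199 and 2.92 ± 0.305 FPKM (SD, n = 3 each), a 1.24-fold ratio, with a log2 fold change of FPKM + 1 of 0.22 (SE 0.09) that did not pass (limma adjusted p = 0.257). The annotated ends of Crb3 overlap Slc25a23 by 759 bases and Dennd1c by 14 bases on the other strand, and no source used here gives the strand setting of the counting, so some fragments could belong to those genes.

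The 2 Kunitz-type inhibitors of cell-surface serine proteases differed widely in level. Spint2 (HAI-2; chr7:29256323-29281912, minus strand) was at 26.2, 23.2 and 25.4 FPKM in controls, against 29.4, 29.5 and 34.2 FPKM in cKO. All cKO libraries lay above all controls, with cKO 3 highest. The means were 24.9 ± 1.53 and 31.0 ± 2.73 FPKM (SD, n = 3 each), 1.24-fold apart. The log2 fold change of 0.30 (SE 0.08) did not pass (limma adjusted p = 0.129, range 0.0721 to 0.374 over 22 alternatives). Without cKO 3, the library that stands apart, it was 0.23 (limma adjusted p = 0.174).

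Spint1 (HAI-1; chr2:119237362-119249527, plus strand) was at 0.513, 0.407 and 0.481 FPKM in controls, against 0.756, 0.806 and 0.504 FPKM in cKO. cKO 3 lay among the controls and the other cKO libraries above them. The fragments were 25 and 30 in controls 2 and 3 and 37 and 45 in cKO 1 and 2, a ratio of 1.76 (1.24 to 2.53). The exact permutation test over all 6 libraries gave p = 0.2. Matriptase, the membrane protease that both inhibitors block, is encoded by St14, which was at 0.433, 0.539 and 0.635 FPKM in controls, against 0.943, 0.817 and 0.746 FPKM in cKO. Like Spint1 it was under the filter, and its groups did not overlap. Of the 6 genes in the list of proteases that these inhibitors act on or near, 0 reached the filter, and 3 had a higher and 3 a lower cKO mean. The groups of 2 were apart with cKO higher and of 1 with cKO lower. Among loci with a mean above 0 and under 1 FPKM the shares were 9.42% and 3.18%. Besides St14, Prss8 was apart with cKO higher, at 0.0608, 0.0407 and 0.0200 FPKM in controls, against 0.179, 0.112 and 0.112 FPKM in cKO. Hgfac, the hepatocyte growth factor activator, was apart in the opposite direction, at 0.153, 0.195 and 0.227 FPKM in controls, against 0.0891, 0.117 and 0.0942 FPKM in cKO.

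The epithelial splicing regulators were at the limit of detection. Esrp1 and Esrp2 encode RNA-binding proteins that set the epithelial splice forms of genes such as Fgfr2. Esrp1 was at 0.00824, 0.0179 and 0.0176 FPKM in controls, against 0.0112, 0.0493 and 0.0358 FPKM in cKO, which overlapped. The smallest whole numbers were 2 and 2 fragments in controls 2 and 3 and 1 and 5 in cKO 1 and 2. Esrp2 was listed at 0 in controls 1 to 3 and at 0.0171, 0.0150 and 0.0156 FPKM in cKO 1 to 3. Its groups were apart, but only cKO 1 and cKO 2 of the 4 libraries had a value, so no number of fragments is read from them and no fold is given. Esrp2 also overlaps Nfatc3 by 219 bases and a non-coding transcript by 1575 bases on the other strand.

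Grhl2 (Grainyhead-like 2, a transcription factor that activates Cdh1 and other junction genes and forms a mutually repressive loop with Zeb1; chr15:37233036-37363569, plus strand) was the 1 gene of the set with a lower mean in cKO. It was at 0.127, 0.114 and 0.140 FPKM in controls, against 0.116, 0.125 and 0.0762 FPKM in cKO. The groups overlapped, and cKO 3 alone lay under all controls. The 16 and 20 fragments of controls 2 and 3 and 13 and 16 of cKO 1 and 2 gave a ratio of 0.952 (0.563 to 1.60).

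Krt8 and Krt18 are the keratin pair that forms the filaments of simple epithelia. Krt8 had the largest difference in mean FPKM among the 8 genes under the filter (0.674), and both had groups that did not overlap. Krt8 (chr15:101996698-102004482, minus strand) was at 0.156, 0.211 and 0.166 FPKM in controls, against 1.27, 0.324 and 0.961 FPKM in cKO. All cKO libraries exceeded the controls, cKO 1 and cKO 3 by far and cKO 2 by little. The means were 0.178 ± 0.0290 and 0.851 ± 0.481 FPKM (SD, n = 3 each), a ratio of 4.80. The fragments were 5 and 4 in controls 2 and 3 and 24 and 7 in cKO 1 and 2 (ratio 4.07, interval 1.89 to 9.72). Without a filter the log2 fold change of FPKM + 0.1 was 1.62 (SE 0.43, limma adjusted p = 0.200). A processed pseudogene, Krt8-ps, is annotated outside the Krt8 locus, and reads shared with it could be split between both.

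Krt18 (chr15:102028180-102032027, plus strand) was at 0.175, 0.141 and 0.0555 FPKM in controls, against 0.389, 0.403 and 0.219 FPKM in cKO. All cKO libraries were above the controls here too, but their order differed from that of Krt8: cKO 2 was highest for Krt18 and lowest for Krt8. The means were 0.124 ± 0.0618 and 0.337 ± 0.103 FPKM (SD, n = 3 each), a ratio of 2.72. In fragments this was 5 and 2 in controls 2 and 3 against 11 and 13 in cKO 1 and 2 (ratio 4.05, interval 1.69 to 11.1). The log2 fold change of FPKM + 0.1 without a filter was 0.98 (SE 0.29, limma adjusted p = 0.235).

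Other epithelial genes had mostly small positive differences, none of which passed. Of 61 genes in 5 lists (junctions, transcription and splicing regulators, trafficking and membrane, proteases and other keratins), 18 were tested, 0 were called by limma over all loci and 4 had an unadjusted p under 0.05. Of all 13612 loci tested, 2396 had such a p (limma), a share to set beside this count and those of the lists below. The log2 fold change was positive in 15 of the 18 and negative in 3, with a median of 0.16, against -0.0095 over all 13612 loci, of which 47.0% were positive. For 13 of the 61 genes (21.3%) every cKO library lay above every control, against 9.92% of loci above 0, and for 1 every cKO library lay below. Most of the 61 were under the filter. Among all loci with a mean above 0 and under 1 FPKM, 9.42% were apart with cKO higher and 3.18% with cKO lower. Ap1m2, the epithelial subunit of an adaptor complex that sorts cargo to the basolateral membrane, was at 1.99, 2.02 and 2.03 FPKM in controls, against 2.68, 2.96 and 2.64 FPKM in cKO. Its log2 fold change of 0.32 (SE 0.07) had the smallest adjusted p of the 18 (limma, 0.0905).

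Among the junction genes, 11 of 24 were tested, and 9 of these had a positive and 2 a negative log2 fold change (median 0.15). Ocln, the tight junction protein occludin, was at 2.23 ± 0.328 FPKM in controls, against 2.85 ± 0.193 FPKM in cKO (SD, n = 3 each; limma adjusted p = 0.240). Jup, plakoglobin of desmosomes and adherens junctions, was at 14.4 ± 0.615 and 15.8 ± 0.202 FPKM (SD, n = 3 each), with groups apart by a small margin. Pard6b, a polarity gene, was at 2.23 ± 0.185 and 2.67 ± 0.235 FPKM (SD, n = 3 each). Of 12 regulators of transcription and splicing, 1 was tested: Grhl1, a paralog of Grhl2, at 1.04 ± 0.206 and 1.61 ± 0.387 FPKM (SD, n = 3 each; limma adjusted p = 0.240). Of 8 trafficking and membrane genes, 4 were tested and all 4 were positive, among them Cds1, a phospholipid synthesis enzyme, at 8.24 ± 0.494 and 10.1 ± 1.05 FPKM (SD, n = 3 each). Mal2 and Tmc4, also in that list, overlapped between groups. Of 11 other keratins only Krt1 and Krt10 reached the filter, with log2 fold changes of 0.21 and -0.09. The means of 7 were higher and of 4 lower in cKO, and 1 was apart (9.92% of loci above 0 were, with cKO higher). That was Krt17, at 0.0414, 0.0258 and 0.0254 FPKM in controls, against 0.129, 0.114 and 0.0927 FPKM in cKO. It was not called in the fit without a filter (FPKM + 0.1, limma adjusted p = 0.133). Krt5 and Krt14, the keratins of basal epidermis, did not exceed 0.127 FPKM in any library.

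**Figure D3:**
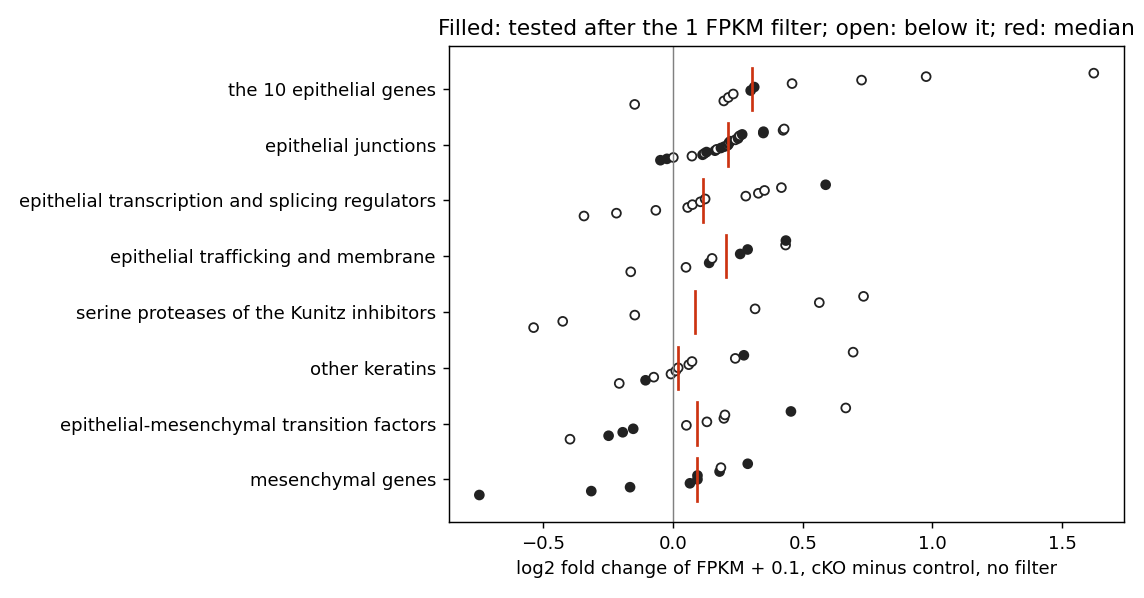
Log2 fold change of FPKM + 0.1 without a filter (cKO minus control, x axis) for each gene of the set and of 7 further lists (y axis), with filled points for genes that passed the filter of 1 FPKM in 3 libraries, open points for those under it, and red lines at the medians. The median of the 10 epithelial genes is 0.31 and that of the junction list 0.21; no point passed the test.

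Genes of the mesenchymal state were also looked at, and none passed. Of 10 factors of epithelial-mesenchymal transition other than Zeb2, 4 were tested and 0 were called (limma; 4 had an unadjusted p under 0.05, 3 of them with lower cKO means). Tcf4 was at 61.8 ± 1.23 FPKM in controls, against 54.0 ± 3.56 FPKM in cKO and Tcf3 at 47.3 ± 1.19 and 39.8 ± 2.60 FPKM (SD, n = 3 each), both E-proteins that also serve in neural differentiation. Snai1, Snai2, Twist1 and Twist2 were each at most 0.859 FPKM in every library. Of 9 mesenchymal genes 8 were tested and 0 called (limma; 3 had an unadjusted p under 0.05), 5 with a positive and 3 with a negative log2 fold change, at a median of 0.08. Vim, Sparc and Cdh11, the 3 with the smallest p, were the 3 with a negative one. Vim, vimentin, which is also the intermediate filament of radial glia, was at 553, 579 and 537 FPKM in controls, against 368, 275 and 359 FPKM in cKO. Its log2 fold change of -0.74 (SE 0.12) did not pass (limma adjusted p = 0.0644). Sparc, a matrix protein, was at 132 ± 8.62 and 106 ± 6.97 FPKM, and Cdh11, a mesenchymal cadherin, at 29.7 ± 0.567 and 26.5 ± 2.20 FPKM (SD, n = 3 each).

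Markers of cell types that carry epithelial genes differed between libraries and were set beside the genes of the set. Of 10 ependymal markers all 10 had a higher cKO mean and 0 of the 9 tested passed (limma; 3 had an unadjusted p under 0.05). Their summed level was 42.2, 41.7 and 40.4 FPKM in controls, against 56.8, 43.9 and 58.3 FPKM in cKO 1 to 3. cKO 1 and cKO 3 were thus high and cKO 2 close to the controls, and among the cKO libraries Krt8, Cdh1 and Crb3 were also lowest in cKO 2. Esrp2 is left out of this order, since its values in cKO 1 and cKO 2 were equal once scaled for relative depth. In Krt18, Spint1, Epcam, Esrp1 and Grhl2, by contrast, cKO 2 was the highest of the cKO libraries. Krt18, Spint1 and Grhl2 were lowest in cKO 3, and Epcam, Esrp1 and Spint2 in cKO 1. Enkur, a cilia gene, was at 6.12, 4.59 and 5.41 FPKM in cKO 1 to 3, and Ccdc153 at 2.54, 1.18 and 1.92 FPKM. Mia, in the same list, was lowest in cKO 1 (12.9, 15.5 and 17.5 FPKM). None of the ependymal markers was at 0 in any library. The part of ependymal cells in the values of these genes was not tested.

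Choroid plexus markers overlapped between the groups. Their sum was 42.4 to 51.6 FPKM in controls, against 36.5 to 60.6 FPKM in cKO, 8 of 16 had a higher and 8 a lower cKO mean, and 0 of the 7 tested were called (limma; 0 had an unadjusted p under 0.05). Otx2 and Enpp2 (the latter at 12.8 to 15.3 FPKM) made up most of this sum in every library. Whether they were specific to choroid plexus in this tissue was not tested. Otx2, the marker with the highest mean, was at 16.4, 20.6 and 10.8 FPKM in controls, against 10.3, 21.5 and 19.0 FPKM in cKO. Ttr, the transthyretin that choroid plexus makes in quantity, was at 0.994, 4.24 and 6.16 against 0.832, 10.98 and 1.02 FPKM. Both were low in cKO 1, the library in which Krt8, Cdh1 and Crb3 were highest. Clic6, Sostdc1 and Calml4, in the same list, were instead highest in cKO 1 among the cKO libraries. Clic6 was at 0.444, 0.391 and 0.469 FPKM in controls, against 1.27, 1.06 and 0.449 FPKM in cKO. In cKO 1 to 3 Sostdc1 was at 1.18, 0.767 and 1.05 FPKM and Calml4 at 2.20, 1.81 and 2.08 FPKM. Meningeal fibroblast markers summed to 21.4 to 45.8 FPKM in controls, against 25.4 to 75.6 FPKM in cKO, with the highest sum in cKO 2. The cKO mean was higher in 9 of 10. Of 9 tested, 0 were called and 3 had an unadjusted p under 0.05 (limma). Their median log2 fold change was 0.91, the largest of the marker lists, against 0.13 for the ependymal list. Ptgds was higher in every cKO library (1.54 ± 0.583 FPKM in controls, 4.06 ± 0.654 in cKO, limma adjusted p = 0.0732). So was Foxc1 (0.936 ± 0.116 and 1.43 ± 0.0852 FPKM). Islr was lower in every cKO library (14.3 ± 2.17 and 9.98 ± 1.60 FPKM, SD, n = 3 each). The 4 arachnoid barrier markers summed to 3.90 to 6.43 and 4.82 to 7.58 FPKM, and Slc47a1 was listed at 0 in control 1 and cKO 3. Endothelial markers summed to 67.03 to 77.4 and 77.3 to 83.2 FPKM, with 8 of 8 means higher in cKO and 0 of 8 called (limma; 2 had an unadjusted p under 0.05). Keratinocyte markers summed to 21.4 to 23.1 and 21.8 to 27.03 FPKM, and Krt5 was listed at 0 in 5 of the 6 libraries. In the arachnoid and keratinocyte lists 0 of 1 and 0 of 5 tested genes were called, and 0 had an unadjusted p under 0.05 (limma). Purkinje cell markers, by comparison, were apart in 5 of 5 genes with cKO higher (9.92% of loci above 0), at sums of 555 to 580 and 603 to 643 FPKM, and 0 of 5 were called (limma; 3 had an unadjusted p under 0.05). The part of these cell types in the values of the 10 genes was not tested.

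**Figure D4:**
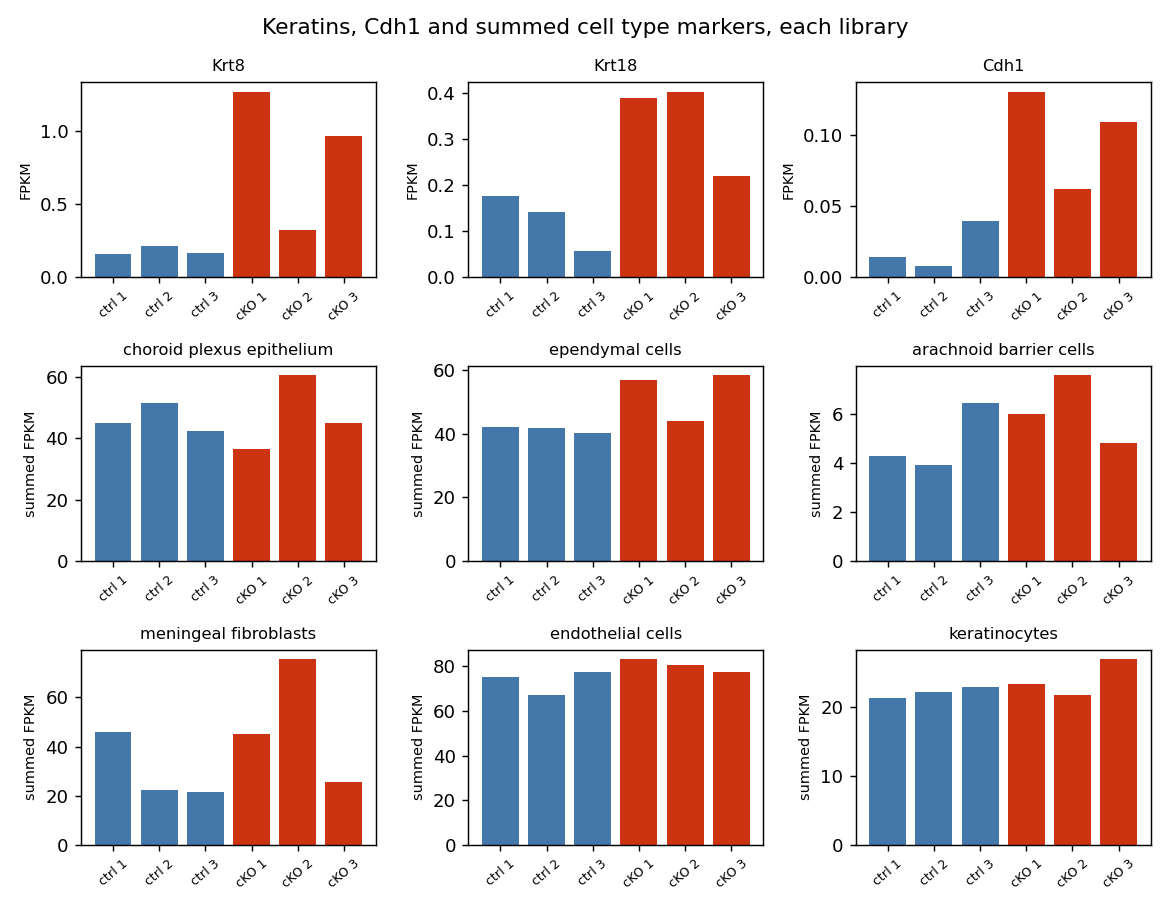
Bars give the FPKM of Krt8, Krt18 and Cdh1 and the summed FPKM of 6 marker lists (y axes from 0, each panel on its own scale) in the 3 control (blue) and 3 cKO (red) libraries (x axis). Krt8, Cdh1 and the ependymal sum are each higher in cKO 1 and cKO 3 than in cKO 2, whereas Krt18 and the choroid plexus and meningeal sums are highest in cKO 2.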

How the data were processed

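RNA-seq libraries of newborn mouse cerebellum were compared (3 control, 3 cKO). Trizol extraction of total RNA preceded an Illumina TruSeq library kit, per the labels' protocols. Per the submitters' processing notes, CASAVA, TopHat and Cufflinks were run by the authors on build mm10; no source used here gives versions, annotation or strand setting. The deposited values were taken as FPKM, which no label states: Cufflinks, the XLOC locus names and the size of the values point to it. Columns were matched to samples by title; for cKO 1 the description carries the number 3.

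Values were tested as log2(FPKM + 1) with limma 3.58.1 (R 4.3.3, trend, two-sided), with Benjamini-Hochberg adjustment over the 13612 loci that reached 1 FPKM in 3 or more of the 6 libraries and a threshold of 0.05. A fold change on this scale understates that of low genes. Coordinates and overlaps are from GENCODE M21 (GRCm38). The 10 genes and all lists were chosen with earlier results of these data known. Named were the 10 genes, Zeb1 and Zeb2, up to 3 genes of each list with the smallest p plus its most abundant gene, and the 3 loci most like Cdh1. Cdh2, St14, Prss8, Hgfac, Pcp4, Ttr, Clic6, Sostdc1, Slc47a1, Krt5, Krt14, Krt17, Snai1, Snai2, Twist1, Twist2, Ddx3y and Xist were named after their values were seen. Of the lists, those of granule neurons (5 genes) and Bergmann glia (5 genes) had 0 called members (limma; 2 genes in each had an unadjusted p under 0.05). On simulated data for this comparison (13612 loci), a change of 0.5 log2 units was called in 57 of 100 loci and a change of 1 in 94 of 100. Python 3.11.15, pandas 2.3.3 and scipy 1.17.1 were used.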

Additional observations from a re-analysis of the deposited data

How the results depend on the processing

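The count of called genes among the 10 was 0 in all 29 alternatives, but most of these tested only Spint2 and Crb3. All 10 were fitted only without a filter, and 7 with at least 0.1 FPKM in 3 libraries. At a mean of at least 5 FPKM Crb3 could not be tested, which left Spint2 alone. Spint2 (22 alternatives, 0.23 to 0.34) and Crb3 (21 alternatives, 0.18 to 0.30) kept a positive log2 fold change. The count of genes with at least 1 FPKM in 3 libraries was 2 throughout, and that with at least 0.1 FPKM in every library was 5 or 6. The median log2 fold change was 0.26 over the 2 tested genes and 0.15 over all 10 without a filter, where the pseudocount of 1 compresses low values, and 0.22 to 0.31 with a library left out. Called loci numbered 78, and 28 without a filter (34 with a pseudocount of 0.1 as well), 30 at a mean of at least 5 FPKM, 22 with the deposit as a covariate, 325 with small-RNA loci left out, 336 with robust variance and 21 to 55 with 1 library left out (21 without cKO 1, 27 without cKO 2, 28 without control 2, 33 without control 1, 44 without cKO 3). Those fits kept the 13612 loci of the full set. With the filter reapplied to the libraries that remained, an alternative chosen after seeing the data, 10 to 41 loci were called with 1 library left out (10 without control 1, 15 without cKO 1, 16 without control 2, 25 without cKO 2, 34 without control 3, 41 without cKO 3). With the first deposit alone (controls 1 and 2, cKO 1 and 2) 52 loci were called, and 20 with the filter reapplied. With the replicate block 15 loci were called, and no member; same-numbered libraries share only a number (correlations of deviations -0.027, 0.037 and 0.049). Depth limits Cdh1, Esrp1, Krt8 and Krt18, whose smallest whole numbers in controls 2 and 3 were 1 to 5 (the true counts could be a multiple of these), and Esrp2, listed at 0 in all controls.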
